A study of Mus musculus with 18 samples.

Results

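The genes described here encode myosin light chains and the kinases that phosphorylate them: Myl1, Myl2, Myl3, Myl4, Myl6, Myl6b, Myl9 and Mylpf, and the kinases Mylk and Mylk2. These 10 genes were listed by name, all 10 were found among the 55414 genes of the count table, and all 10 were kept among the 21772 genes that reached a total of 10 counts. Messenger RNA was measured in C2C12 cells, an established mouse myoblast line that fuses into myotubes. At confluence, in differentiation medium, the myoblasts received SMARTpool siRNA mixtures with DharmaFECT Duo, directed against Erk3 (siErk3), against Mk5 (siMk5) or against no target (siNTC). After 6 days of differentiation, the myotubes spent 16 h in serum-free medium with palmitic acid at 0.5 mM bound to BSA, or with BSA alone. The 6 groups hold 3 libraries each, 18 in all. They come from a single cell line, and every group went through the transfection. The sources do not say if the 3 libraries are independent cultures, so the p-values measure the spread between these libraries, which may be technical.

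A myosin motor consists of heavy chains that each bind an essential (alkali) and a regulatory light chain at the neck. Adult fast fibers use Myl1 and Mylpf, slow and cardiac muscle use Myl3 and Myl2, embryonic muscle and atria use Myl4, and smooth muscle and non-muscle cells use Myl6 and Myl9. Phosphorylation of the regulatory chain by calmodulin-dependent kinases, Mylk2 in skeletal muscle and Mylk in smooth muscle and non-muscle cells, raises force or switches the motor on.

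Libraries held 13041979 to 28496727 counts (median 22417470). The 10 genes together took 0.519% to 0.744% of the counts of a library. Transcripts of the 18S ribosomal RNA gene took 1.5% to 12.87% of counts, with the highest shares in siMk5 BSA (8.39% to 12.87%). The gene of the Erk3 protein, Mapk6, was at 55.2 to 60.4 CPM (TMM-normalized CPM, a count scaled to library size) in siErk3 against 129 to 135.3 CPM in siNTC in BSA, and at 108.7 to 131.4 CPM against 215.4 to 243.6 CPM in palmitic acid. The gene of Mk5, Mapkapk5, had 27 to 86 counts per library and was at 1.18 to 2.01 CPM in siMk5 against 2.32 to 2.54 CPM in siNTC in BSA, and at 2.17 to 2.43 CPM against 2.52 to 3.92 CPM in palmitic acid. Its difference did not pass the test in either medium (edgeR FDR = 0.469 in both), and 56.4% of its exonic bases are shared with another gene on the same strand. The 10 myotube markers, among them Myog, Ckm and Acta1, summed to 7603 to 9387 CPM in every library, and none of the 10 was at 0.

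Stretches of the promoters of these genes are shown for known regulatory motifs. Genes of smooth muscle and non-muscle chains are known to carry CArG boxes, the sites that serum response factor binds. RefSeq promoter sequences (build GRCm38.p6, 250 bases upstream of the start) were found for 9 of the 10 genes, all but Mylk2, and each matched GRCm39 exactly at 1 place on its own chromosome. A CArG box lay within these bases in 3 genes, Myl9, Myl6 and Myl3, whereas 1.47% of the 32851 RefSeq promoters held one. Capitals mark the box.
Myl9 (chr2:156617213-156617242, + strand, box ending 152 bases before the start): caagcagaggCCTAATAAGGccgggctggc
Myl6 (chr10:128328909-128328938, - strand, box ending 41 bases before the second of 2 RefSeq starts): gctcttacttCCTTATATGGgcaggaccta
Myl3 (chr9:110592651-110592680, + strand, box ending 76 bases before the start): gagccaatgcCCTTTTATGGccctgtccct

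The hexamer CAGCTG, a form of the E-box that myogenic factors such as MyoD and Myog bind, lay in the promoters of 3 sarcomeric light chains, Mylpf, Myl1 and Myl2, and in 4271 of the 32851 RefSeq promoters. Capitals mark the hexamer, which reads the same on both strands.
Mylpf (chr7:126810717-126810746, + strand, 46 bases before the start): cttcctgggctcCAGCTGctgcaggcctcc
Myl1 (chr1:66984422-66984451, - strand, 219 bases before the start): aggtacgtctgtCAGCTGtcaccaaaccaa
Myl2 (chr5:122231110-122231139, + strand, 125 bases before the second of 2 RefSeq starts): caggtcaggccaCAGCTGtcgctggcatct

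The kinase gene Mylk held neither of these motifs in its 250 bases and had CATTCC, the site of TEAD factors, which was also in Myl1 and Myl3 and in 12.6% of all promoters.
Mylk (chr16:34605150-34605179, + strand, 153 bases before the start): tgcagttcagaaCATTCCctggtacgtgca
Both strands were searched, no motif overlapped another, and no MEF2 site was in the windows of the 9 genes (2.92% of all promoters). Of the smooth muscle type contractile genes described further on, 10 of 12 had a RefSeq promoter, and 2 of these, Cnn2 and Vcl, held a CArG box. The windows are placed by RefSeq starts, which differ from the ends of the genes as counted. The printed stretches of Myl9 (span from 156617340) and Myl2 (span from 122239014) lie upstream of the spans over which these genes were counted. That of Myl9 ends at 156617242, close to its span, while that of Myl2 ends at 122231139, far from its span. Those of Mylpf, Myl1, Myl3, Myl6 and Mylk lie inside the spans of their genes. A match is only a match of letters, and binding was not measured. Of the genes with a CArG box, Myl9 and Myl6 were called lower with palmitic acid for every siRNA and Myl3 for none. Mylk, with no box in the window searched, was called lower for every siRNA. The rest of its span was not searched. The part of these motifs in the changes was not tested.

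The count table places the genes in GRCm39 as follows. The fast chains are Mylpf (ENSMUSG00000030672, chr7:126808062-126813470, + strand) and Myl1 (ENSMUSG00000061816, chr1:66963454-66984563, - strand). The slow chains are Myl2 (chr5:122239014-122251535, + strand) and Myl3 (chr9:110570929-110598866, + strand), and the embryonic chain is Myl4 (chr11:104441489-104486579, + strand). Myl6 (chr10:128326729-128330014) and Myl6b (chr10:128330026-128334554) are neighbours on the - strand of chromosome 10. Myl9 (chr2:156617340-156623578) and Mylk2 (chr2:152753272-152764988) are on the + strand of chromosome 2, and Mylk spans chr16:34565580-34822790 on the + strand. No exon of the 10 genes overlapped another gene on the same strand. Exons of Myl2, Myl3, Myl4 and Mylk overlap genes on the other strand, and the counting used strand. Of the 100-base stretches in the transcripts of Myl1, 2.32% also occur in its pseudogene Mylf-ps, and 3.46% of those of Myl6 occur in other genes, mainly pseudogenes. The other 8 genes shared none. Mylf-ps had 7.71% to 8.74% as many counts as Myl1, and read pairs of the 2 genes could be exchanged.

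Levels were compared between genes as CPM per kilobase of exons (CPM per kb). The exonic bases are all those annotated for a gene, which can exceed the transcript present, so the order between genes depends on this length. Mylpf, the fast regulatory chain, had the highest level in every group, with 2610 ± 66.1 CPM per kb (SD, n = 3) in siNTC BSA. Myl1, the fast alkali chain, followed at 779 ± 42.1 CPM per kb (SD, n = 3) and the embryonic alkali chain Myl4 at 309.9 ± 4.64 CPM per kb (SD, n = 3). The chains of smooth muscle and non-muscle cells were lower.

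Myl6 stood at 160.6 ± 4.21 CPM per kb (SD, n = 3) and Myl9 at 73.9 ± 1.72 CPM per kb (SD, n = 3), with Myl6b, an alkali chain of slow muscle and non-muscle cells, between them at 92.7 ± 5.32 CPM per kb (SD, n = 3). Of the kinases, Mylk2 was at 9.34 ± 0.56 CPM per kb (SD, n = 3) and Mylk at 4.70 ± 0.22 CPM per kb (SD, n = 3). Without division by exonic bases (2951 for Mylk2 and 11263 for Mylk) this order was reversed. In CPM, Mylk2 had a mean of 27.55 and Mylk of 52.92 in siNTC BSA. The slow chains came last, with Myl2 at 3.56 ± 0.21 CPM per kb (SD, n = 3) and Myl3 at 0.76 ± 0.10 CPM per kb (SD, n = 3). The order from Mylpf down to Mylk2 was the same in all 6 groups, and the libraries of neighbouring genes did not overlap. Below Mylk2 the order varied, with Mylk above Myl2 in the 3 BSA groups and in siErk3 palmitic acid, and Myl2 above Mylk in siNTC and siMk5 palmitic acid. Only in siMk5 BSA did the libraries of Mylk and Myl2 overlap. Of the sarcomeric regulatory chains, Mylpf made up 99.8% to 99.9% per kb in the mean of each group and Myl2 the remainder.

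**Figure D1:**
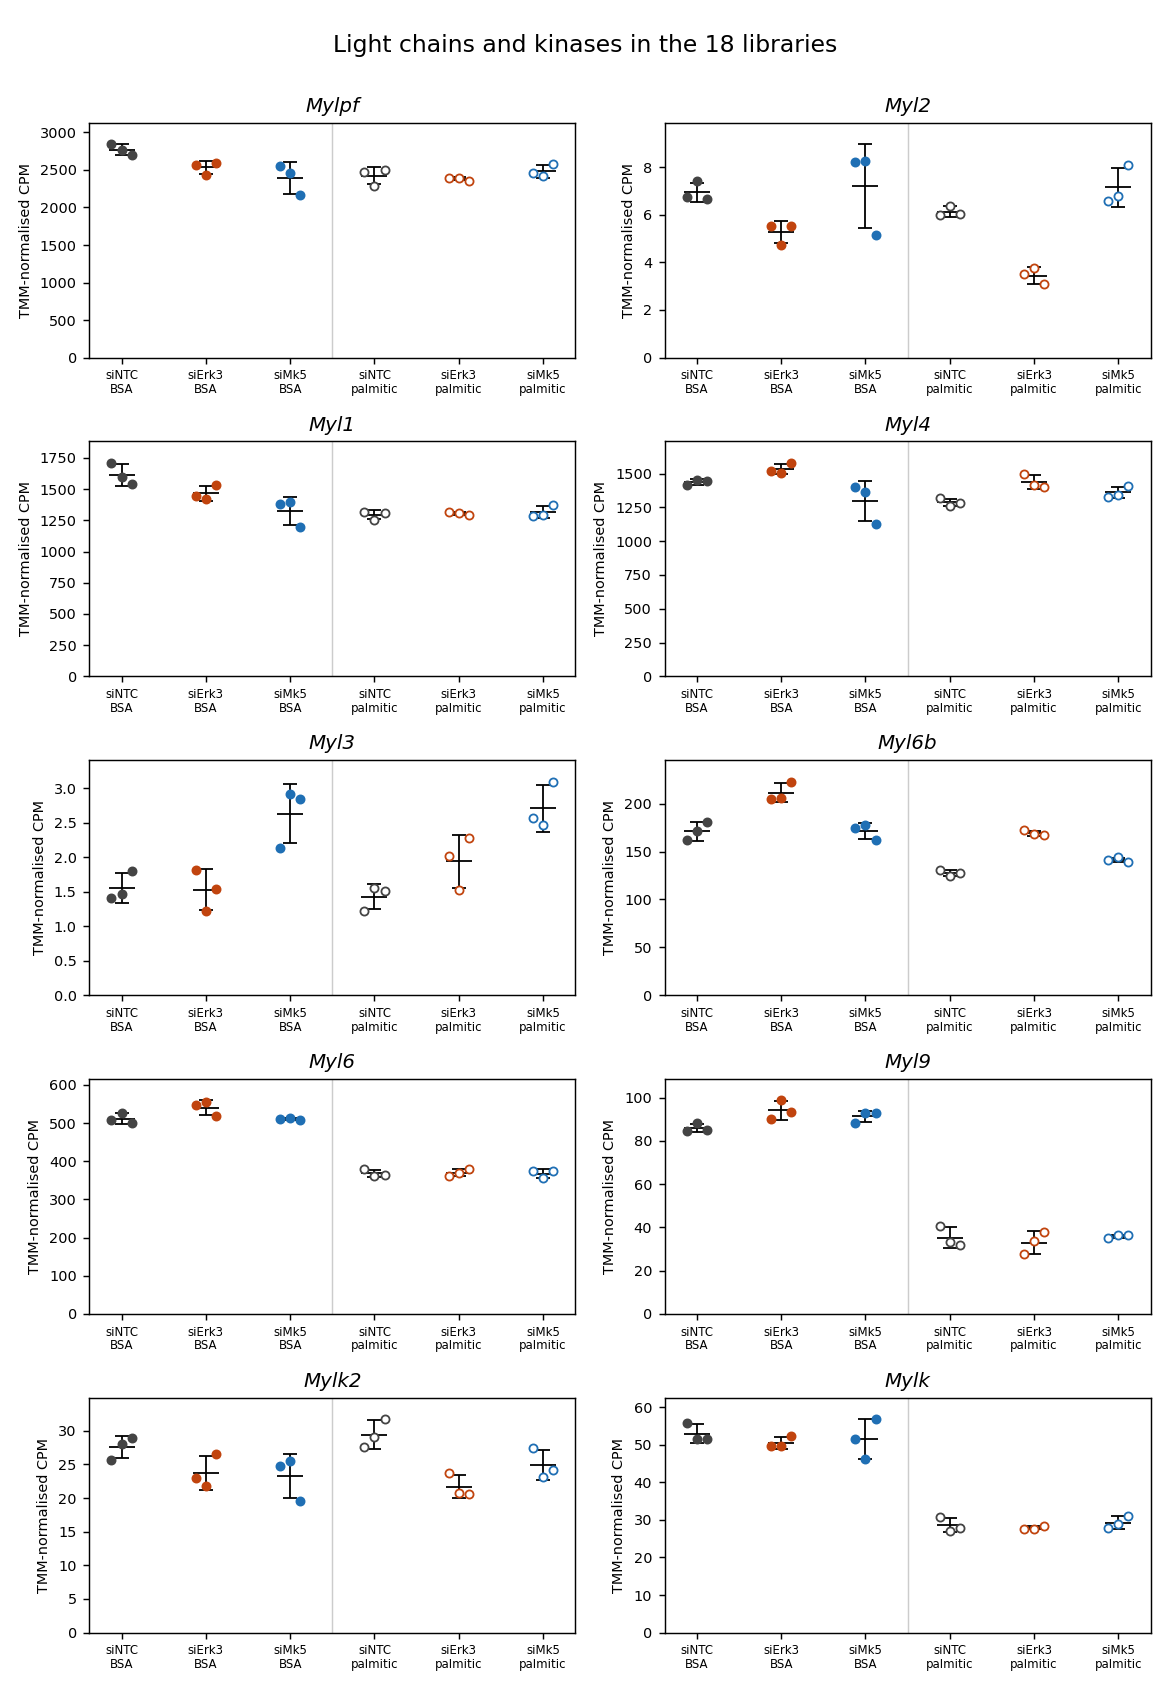
TMM-normalized CPM (y axis, linear from 0) of each of the 10 genes in the 6 groups (x axis), where points are the 3 libraries of a group (filled in BSA, open in palmitic acid), long bars the mean and error bars the SD. Myl9, Myl6 and Mylk are lower in all 9 palmitic acid libraries than in all 9 BSA libraries, Myl2 is lowest in siErk3 palmitic acid and the means of Myl3 are highest in the 2 siMk5 groups.

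Palmitic acid lowered Myl9, Myl6 and the kinase Mylk, which are of the smooth muscle and non-muscle type, whichever siRNA the cells had received. Myl12a, a non-muscle regulatory chain outside the 10 genes, was not called. A gene was called when it passed an edgeR FDR below 0.05 and a fold change above 1.3 over all 21772 genes. With siNTC, 4 of the 10 genes fell (Myl9, Mylk, Myl6 and Myl6b) and none rose, where 30.6% of all genes were called and 15.1% were called lower. With siErk3, 4 fell (Myl9, Mylk, Myl2 and Myl6), where 32.1% of all genes were called and 16.3% were called lower. With siMk5, 3 fell (Myl9, Mylk and Myl6), where 29.7% of all genes were called and 14.6% were called lower. Myl9, Mylk and Myl6 thus fell in each of the 3 comparisons. The median log2 fold change of the 10 genes was -0.26, -0.25 and -0.01, beside -0.03, -0.01 and -0.01 over all genes.

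Myl9, the phosphorylatable regulatory chain of smooth muscle and non-muscle myosin, showed the largest change of the 10. It was at 84.4, 88.2 and 85.1 CPM in siNTC BSA and at 40.7, 33.1 and 32.0 CPM in siNTC palmitic acid, a log2 fold change of -1.28 (SE 0.08, edgeR FDR = 7.51e-15). In siErk3 it went from 90.2, 98.8 and 93.3 CPM to 27.6, 33.6 and 37.8 CPM (-1.51 on the log2 scale, SE 0.08, edgeR FDR = 8.19e-17). In siMk5 it went from 88.3, 92.9 and 92.9 CPM to 35.1, 36.3 and 36.4 CPM (-1.35 on the log2 scale, SE 0.08, edgeR FDR = 2.23e-15). The 9 libraries with palmitic acid, none above 40.7 CPM, lay far below the 9 with BSA, none below 84.4 CPM.

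Mylk, the kinase that phosphorylates Myl9, stood at 55.8, 51.4 and 51.6 CPM in siNTC BSA and at 30.7, 27.1 and 27.8 CPM in siNTC palmitic acid (-0.89 on the log2 scale, SE 0.07, edgeR FDR = 1.36e-12). In siErk3 it was at 49.6, 49.6 and 52.3 CPM in BSA and at 27.7, 27.7 and 28.4 CPM in palmitic acid (-0.85 on the log2 scale, SE 0.07, edgeR FDR = 1.46e-12). In siMk5 it was at 51.6, 46.2 and 56.8 CPM in BSA and at 27.8, 28.8 and 31.1 CPM in palmitic acid (-0.82 on the log2 scale, SE 0.07, edgeR FDR = 7.05e-12). The libraries of the 2 media did not overlap for any siRNA.

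Myl6, the alkali chain that pairs with Myl9, changed less. It was at 507.2, 527.1 and 501.6 CPM in siNTC BSA and at 379.3, 362.6 and 365.1 CPM in siNTC palmitic acid (-0.47 on the log2 scale, SE 0.04, edgeR FDR = 3.64e-11). In siErk3 it was at 546.5, 556.4 and 519.5 CPM in BSA and at 360.2, 369.8 and 379.6 CPM in palmitic acid (-0.55 on the log2 scale, SE 0.04, edgeR FDR = 1.05e-12). In siMk5 it was at 510.4, 512.7 and 509.4 CPM in BSA and at 374, 355.4 and 374.3 CPM in palmitic acid (-0.47 on the log2 scale, SE 0.04, edgeR FDR = 3.55e-11). Here too, the media did not overlap for any siRNA.

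Myl6b, which lies next to Myl6, was at 161.6, 171 and 181.2 CPM in siNTC BSA and at 130.5, 124.7 and 127.9 CPM in siNTC palmitic acid (-0.42 on the log2 scale, SE 0.05, edgeR FDR = 7.53e-09). In siErk3 and siMk5 its log2 fold changes were -0.32 (edgeR FDR = 6.69e-07) and -0.28 (edgeR FDR = 1.11e-05), short of the fold criterion, and the libraries of the 2 media did not overlap. Whether the change of Myl6b differs between siRNAs was tested by the interaction, which it did not pass (edgeR FDR = 0.863 for siErk3 and 0.659 for siMk5).

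The fast and embryonic sarcomeric chains stayed within the fold criterion. In siNTC, the log2 fold changes with palmitic acid were -0.32 for Myl1 (95% interval -0.42 to -0.21), -0.19 for Mylpf (-0.30 to -0.09) and -0.16 for Myl4 (-0.27 to -0.05), with edgeR FDR = 3.97e-06, 0.00162 and 0.0159. In siErk3 they were -0.17 for Myl1 (-0.27 to -0.06), -0.09 for Mylpf (-0.19 to 0.01) and -0.09 for Myl4 (-0.20 to 0.02). In siMk5 all 3 lay near 0, at -0.01 (-0.11 to 0.10), 0.05 (-0.05 to 0.15) and 0.07 (-0.04 to 0.18). Replicate 3 of siMk5 BSA had 1195 CPM of Myl1, 2160 CPM of Mylpf and 1125 CPM of Myl4, the lowest of all 18 libraries for each of the 3 genes.

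The skeletal kinase Mylk2 was not called in any of these comparisons. It was at 25.7, 28.1 and 28.9 CPM in siNTC BSA and at 27.5, 29 and 31.7 CPM in siNTC palmitic acid, with overlapping groups and a log2 fold change of 0.09 (95% interval -0.09 to 0.27). The log2 fold changes were -0.14 (-0.32 to 0.05) in siErk3 and 0.10 (-0.09 to 0.28) in siMk5.

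The slow regulatory chain Myl2 fell with palmitic acid in siErk3, from 5.54, 4.72 and 5.55 CPM to 3.50, 3.76 and 3.08 CPM (-0.60 on the log2 scale, SE 0.15, edgeR FDR = 0.000977). With siNTC it was at 6.74, 7.42 and 6.67 CPM in BSA and 5.98, 6.38 and 6.01 CPM in palmitic acid (edgeR FDR = 0.291), and with siMk5 the groups overlapped (edgeR FDR = 0.92). The slow alkali chain Myl3, with 20 to 60 counts per library, overlapped between media for every siRNA.

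**Figure D2:**
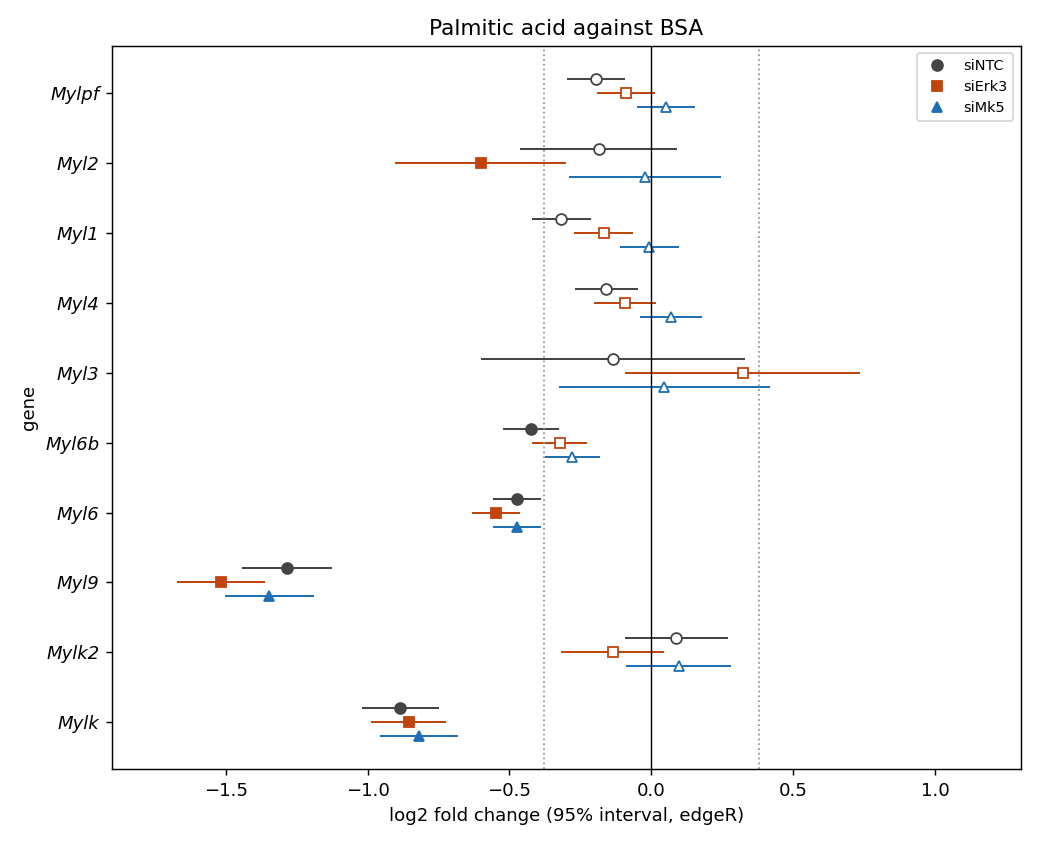
Log2 fold change of palmitic acid against BSA (x axis) of each gene (y axis) with its 95% interval, for siNTC (circles), siErk3 (squares) and siMk5 (triangles), where filled symbols passed both criteria and dotted lines mark a fold change of 1.3. Myl9 lies between -1.51 and -1.28 and Mylk between -0.89 and -0.82, while the intervals of Mylk2 include 0 for every siRNA.

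Palmitic acid changed many genes, and the genes that share a cell type or a role with Myl9 and Mylk were among them. Of all genes tested, 15.1%, 16.3% and 14.6% were called lower in siNTC, siErk3 and siMk5. Of 12 smooth muscle type contractile genes (actins Acta2 and Actg2, Tagln, the calponins Cnn1 and Cnn2, Cald1, Lmod1, Smtn, Synpo2, Tpm2, Tpm4 and Vcl), 11 fell in siNTC, 11 in siErk3 and 10 in siMk5, with median log2 fold changes of -0.77, -0.97 and -0.84. None rose. Of 4 non-muscle and smooth muscle heavy chains, only Myh10 fell in the 3 comparisons, by 0.77, 0.96 and 0.98 on the log2 scale. Of 9 sarcomeric heavy chains, 6 fell in siNTC, 8 in siErk3 and 6 in siMk5. Sequence shared among the heavy chain genes was not measured.

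Genes used as markers of other cell types moved with the same contrast, although all libraries come from a single myoblast line. Whether they mark separate cells here was not tested. The counts of these markers stand beside 15.1%, 16.3% and 14.6% of all genes called lower in siNTC, siErk3 and siMk5. The 6 fibroblast markers summed to 11180 to 14000 CPM in the 9 BSA libraries and to 3821 to 6296 CPM in the 9 palmitic acid libraries, and 5, 5 and 6 of the 6 fell in siNTC, siErk3 and siMk5. The 7 markers of undifferentiated or cycling myoblasts summed to 931.8 to 1018 CPM in BSA and to 452.8 to 569 CPM in palmitic acid, and 5 of the 7 fell with each siRNA. Pcna, a cycling marker of this list, had a higher mean in palmitic acid with each siRNA (67.0 and 85.8 CPM in siNTC BSA and siNTC palmitic acid). The 6 smooth muscle cell markers summed to 2313 to 2673 CPM and 958 to 1255 CPM, and 5 of the 6 fell with each siRNA. Their defining member Myh11, the smooth muscle myosin heavy chain, stayed at 0 to 0.36 CPM.

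Myotube markers summed to 7900 to 9387 CPM in BSA and to 7603 to 8205 CPM in palmitic acid. In siNTC, siErk3 and siMk5, 7, 4 and 4 of the 10 fell, beside 15.1%, 16.3% and 14.6% of all genes called lower. The mean of Des was higher in palmitic acid with each siRNA (2012 and 2174 CPM in siNTC BSA and siNTC palmitic acid). Myoblasts, fibroblasts and smooth muscle cells all express Myl9, Myl6 and Mylk. No marker of these lists was at 0 in all libraries of a group. In bulk RNA, fewer cells of a type and less RNA per cell cannot be told apart. The part of these markers in the lower Myl9, Mylk and Myl6 was not tested.

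**Figure D3:**
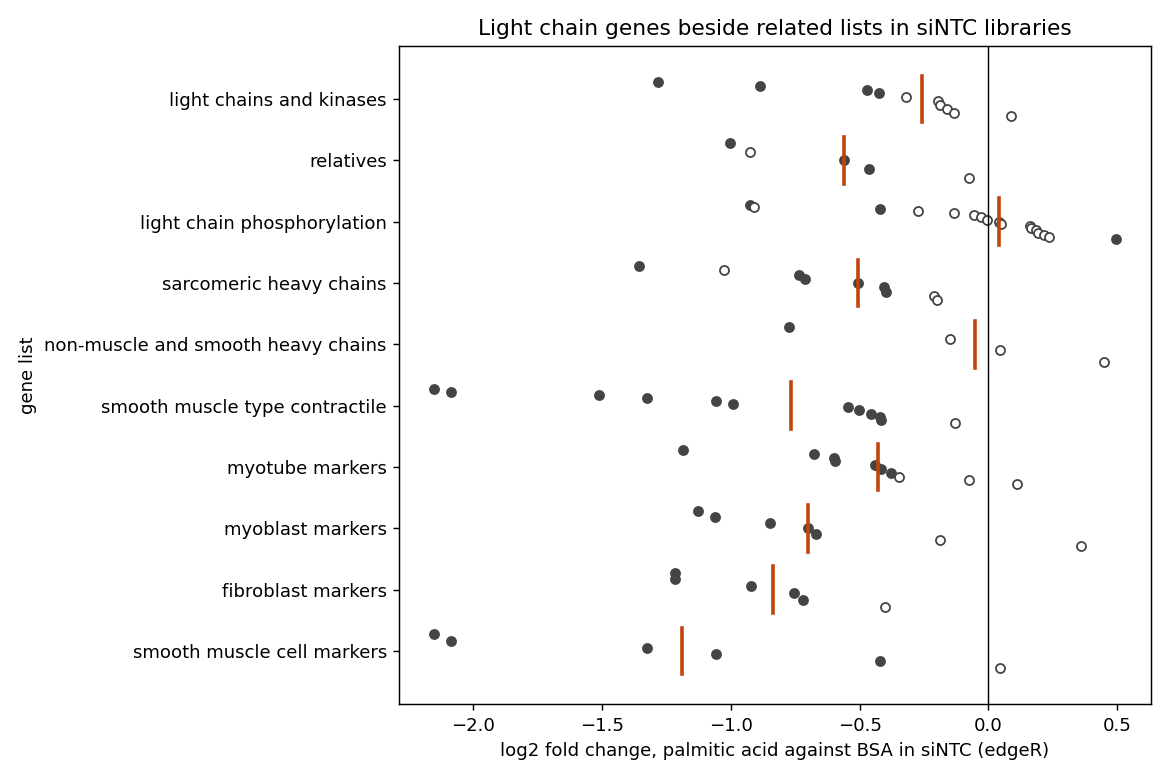
Log2 fold change of palmitic acid against BSA in the siNTC libraries (x axis) for the genes of 10 lists (y axis), where each point is a gene, filled points passed both criteria and the vertical bar is the median of the list. The median was -0.26 for the light chains and kinases, -0.77 for the smooth muscle type contractile genes, -0.70 for the myoblast markers and -0.03 over all genes tested. Acta2, Tagln, Cnn1, Smtn and Lmod1 are in both smooth muscle lists.

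The siErk3 libraries were compared with siNTC in the same medium to see which genes differ once Erk3 is silenced, and in palmitic acid 3 of the 10 did. In BSA none of the 10 was called, where 0.785% of all genes were called. By DESeq2 the count was also 0, and 5 of the 10 had an unadjusted edgeR p below 0.05. The share of all genes at that unadjusted threshold was not taken. Such counts, here and further on, cannot be set beside the percentages of genes called. In palmitic acid, Myl2 and Mylk2 fell and Myl6b rose, where 0.556% of all genes were called.

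Myl2 was at 3.50, 3.76 and 3.08 CPM in siErk3 palmitic acid and at 5.98, 6.38 and 6.01 CPM in siNTC palmitic acid, a log2 fold change of -0.82 (SE 0.15, edgeR FDR = 0.00173). None of the siErk3 libraries reached the lowest siNTC library. In BSA they also did not overlap, with 4.72 to 5.55 CPM against 6.67 to 7.42 CPM, but the log2 fold change of -0.40 did not pass (edgeR FDR = 0.213). Mean counts of Myl2 per group ran from 82 to 150.7, so its levels rest on few read pairs.

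Mylk2, the skeletal kinase whose substrates are Mylpf and Myl2, was at 23.7, 20.8 and 20.6 CPM in siErk3 palmitic acid and at 27.5, 29 and 31.7 CPM in siNTC palmitic acid. The groups did not overlap, and the log2 fold change was -0.44 (SE 0.09, edgeR FDR = 0.00718). This call depended on single libraries. Without siNTC palmitic acid replicate 3 the log2 fold change was -0.38 (edgeR FDR = 0.0496), just short of the fold criterion, and without siErk3 palmitic acid replicate 2 it was -0.41 (edgeR FDR = 0.0742). In BSA it was -0.21 (edgeR FDR = 0.359), and the groups overlapped. Mylk, the other kinase, was at -0.03 (95% interval -0.18 to 0.11) in palmitic acid and at -0.06 (-0.19 to 0.07) in BSA.

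Myl6b was at 172.2, 167.8 and 166.9 CPM in siErk3 palmitic acid and at 130.5, 124.7 and 127.9 CPM in siNTC palmitic acid (0.40 on the log2 scale, SE 0.05, edgeR FDR = 3.53e-06). In BSA it was at 204.9, 206.1 and 223.1 CPM against 161.6, 171 and 181.2 CPM, and the log2 fold change of 0.30 (SE 0.05) had an edgeR FDR of 0.000193 without reaching the fold criterion. The siErk3 libraries lay above the siNTC libraries in both media. Its neighbour Myl6 was at 0.08 (95% interval -0.01 to 0.16) in BSA and at 0.00 (-0.08 to 0.09) in palmitic acid.

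The other members were not called with siErk3. Myl4 was at 1497, 1417 and 1400 CPM against 1317, 1263 and 1281 CPM in palmitic acid, without overlap, at a log2 fold change of 0.16 (edgeR FDR = 0.262). Myl3 was at 2.02, 1.52 and 2.28 CPM against 1.22, 1.55 and 1.52 CPM (edgeR FDR = 0.618), with overlapping groups. Myl9 was at 0.13 (95% interval -0.02 to 0.27) in BSA and at -0.10 (-0.27 to 0.07) in palmitic acid.

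With siMk5, 1 of the 10 genes differed from siNTC, and in palmitic acid. In BSA none was called, where 0.0643% of all genes were called, with 0 by DESeq2 as well and 5 at an unadjusted edgeR p below 0.05. In palmitic acid the slow alkali chain Myl3 rose, where 0.547% of all genes were called.

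Myl3 was at 2.56, 2.47 and 3.10 CPM in siMk5 palmitic acid and at 1.22, 1.55 and 1.52 CPM in siNTC palmitic acid, a log2 fold change of 0.92 (SE 0.20, edgeR FDR = 0.0145). In BSA it was at 2.14, 2.92 and 2.84 CPM against 1.40, 1.46 and 1.80 CPM, with a log2 fold change of 0.74 that did not pass (SE 0.20, edgeR FDR = 0.224). The siMk5 libraries lay above the siNTC libraries in each medium. The mean count per group was 30.3 to 56.7, and the call was lost without siNTC palmitic acid replicate 1 (0.82, edgeR FDR = 0.125) and without siMk5 palmitic acid replicate 3 (0.82, edgeR FDR = 0.131).

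Myl1 had the smallest adjusted p of the 10 genes in siMk5 BSA. It was at 1383, 1393 and 1195 CPM against 1711, 1597 and 1539 CPM in siNTC BSA, without overlap, and its log2 fold change of -0.29 (SE 0.05, edgeR FDR = 0.00828) stayed short of the fold criterion. In the same libraries Mylpf was at 2557, 2466 and 2160 CPM against 2846, 2763 and 2706 CPM (-0.21 on the log2 scale, edgeR FDR = 0.105) and Myl4 at 1401, 1362 and 1125 CPM against 1414, 1456 and 1442 CPM (-0.15 on the log2 scale, edgeR FDR = 0.543). The siMk5 BSA libraries were also those with the highest share of 18S counts, whose part in these values was not tested beyond a fit without that gene, in which the same calls were made. In palmitic acid the 3 fast and embryonic chains were at 0.02, 0.04 and 0.08 with siMk5, and Mylk2 was at -0.24 (edgeR FDR = 0.473).

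**Figure D4:**
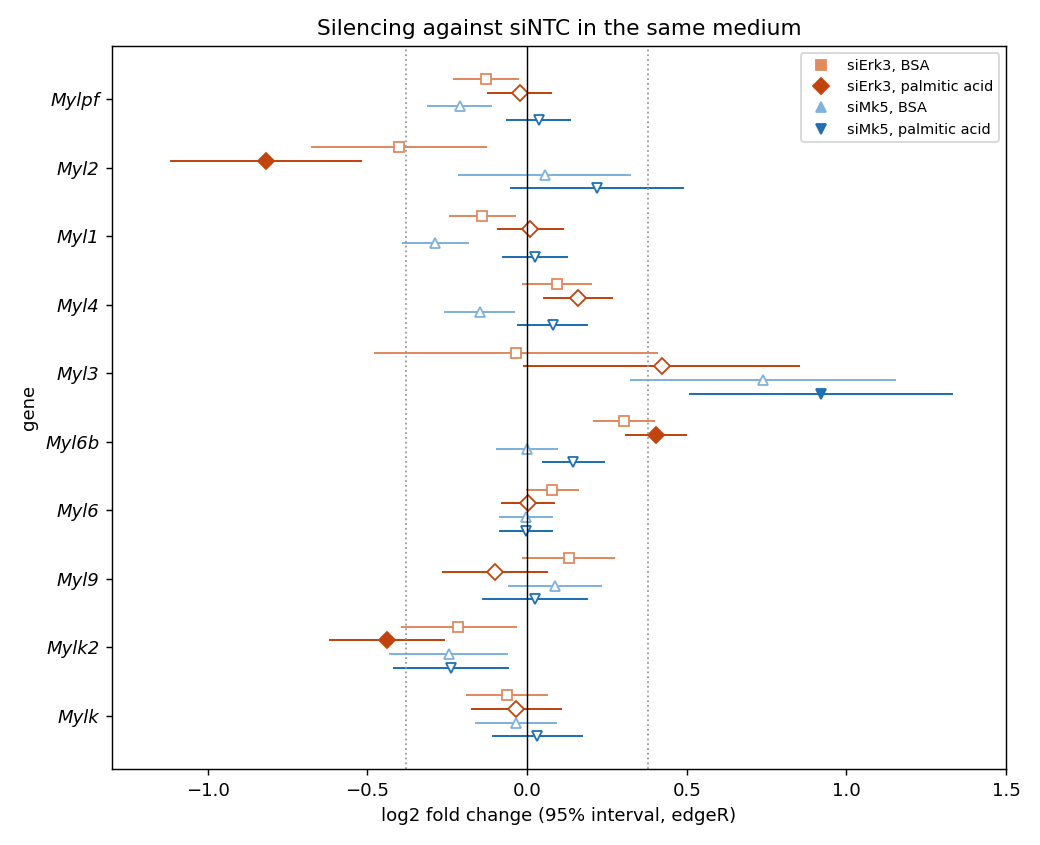
Log2 fold change of siErk3 and siMk5 against siNTC in the same medium (x axis) of each gene (y axis) with its 95% interval, where filled symbols passed both criteria and dotted lines mark a fold change of 1.3. The filled symbols are Myl2 (-0.82), Myl6b (0.40) and Mylk2 (-0.44) with siErk3 in palmitic acid and Myl3 (0.92) with siMk5 in palmitic acid.

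The silencings were also compared with each other. In palmitic acid 1 of the 10 genes was called, where 1.03% of all genes were called. Myl2 was lower with siErk3, at 3.50, 3.76 and 3.08 CPM, than with siMk5, at 6.56, 6.80 and 8.10 CPM (-1.04 on the log2 scale, SE 0.14, edgeR FDR = 1.19e-05), and the groups did not overlap. Myl6b was higher with siErk3 at a log2 fold change of 0.26 (edgeR FDR = 0.000929), short of the fold criterion.

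In BSA none of the 10 was called, where 0.588% of all genes were called, with 0 by DESeq2 and 5 at an unadjusted edgeR p below 0.05. Myl3 was nearest, at 1.82, 1.22 and 1.54 CPM with siErk3 and 2.14, 2.92 and 2.84 CPM with siMk5 (-0.77 on the log2 scale, SE 0.20, edgeR FDR = 0.0527). Without siMk5 BSA replicate 1 it passed (-0.91, edgeR FDR = 0.0291), and without siMk5 BSA replicate 3 Myl2 passed (-0.64, edgeR FDR = 0.00273). Of the rest, Myl6b (0.30) and Myl4 (0.24) had an edgeR FDR below 0.05 (0.000208 and 0.0159) without the fold change.

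Whether a silencing acted differently in the 2 media was tested by the interaction. For siErk3 none of the 10 genes passed, where 0.0367% of all genes were called, with 0 by DESeq2 and 3 at an unadjusted edgeR p below 0.05. For siMk5 none passed, where 0.211% of all genes were called, with 0 by DESeq2 and 4 at an unadjusted edgeR p below 0.05. So the calls of Myl2, Mylk2, Myl6b and Myl3 in palmitic acid are not shown to differ from the changes in BSA. Myl2 had an interaction of -0.42 with siErk3 (95% interval -0.83 to -0.01, edgeR FDR = 0.811). Myl1 came nearest to a call, with 0.31 for siMk5 (0.16 to 0.46, edgeR FDR = 0.0598).

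Ratios between genes within a library, taken on CPM per kb, are not affected by library size. Their absolute size depends on the exonic bases of the genes, which are the same for every library. Mylk2 to Mylk was at 1.76, 2.08 and 2.14 in siNTC BSA and at 3.42, 4.08 and 4.35 in siNTC palmitic acid. The 9 palmitic acid libraries, all above 2.7, were higher than the 9 BSA libraries, all below 2.2. Myl9 to Myl6 lay between 0.45 and 0.50 in the BSA libraries and between 0.21 and 0.29 in the palmitic acid libraries.

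The embryonic to fast alkali chain ratio, Myl4 to Myl1, was at 0.37, 0.41 and 0.42 in siNTC BSA and at 0.47, 0.47 and 0.46 in siErk3 BSA. In palmitic acid it was at 0.45, 0.45 and 0.44 with siNTC and at 0.51, 0.48 and 0.49 with siErk3, and in neither medium did the groups overlap. With siMk5 it was at 0.45, 0.44 and 0.42 in BSA and at 0.46, 0.46 and 0.46 in palmitic acid, above the siNTC libraries in both. Myl6b to Myl6 was highest in siErk3 palmitic acid, at 0.83, 0.78 and 0.76, against 0.59, 0.59 and 0.60 in siNTC palmitic acid.

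**Figure D5:**
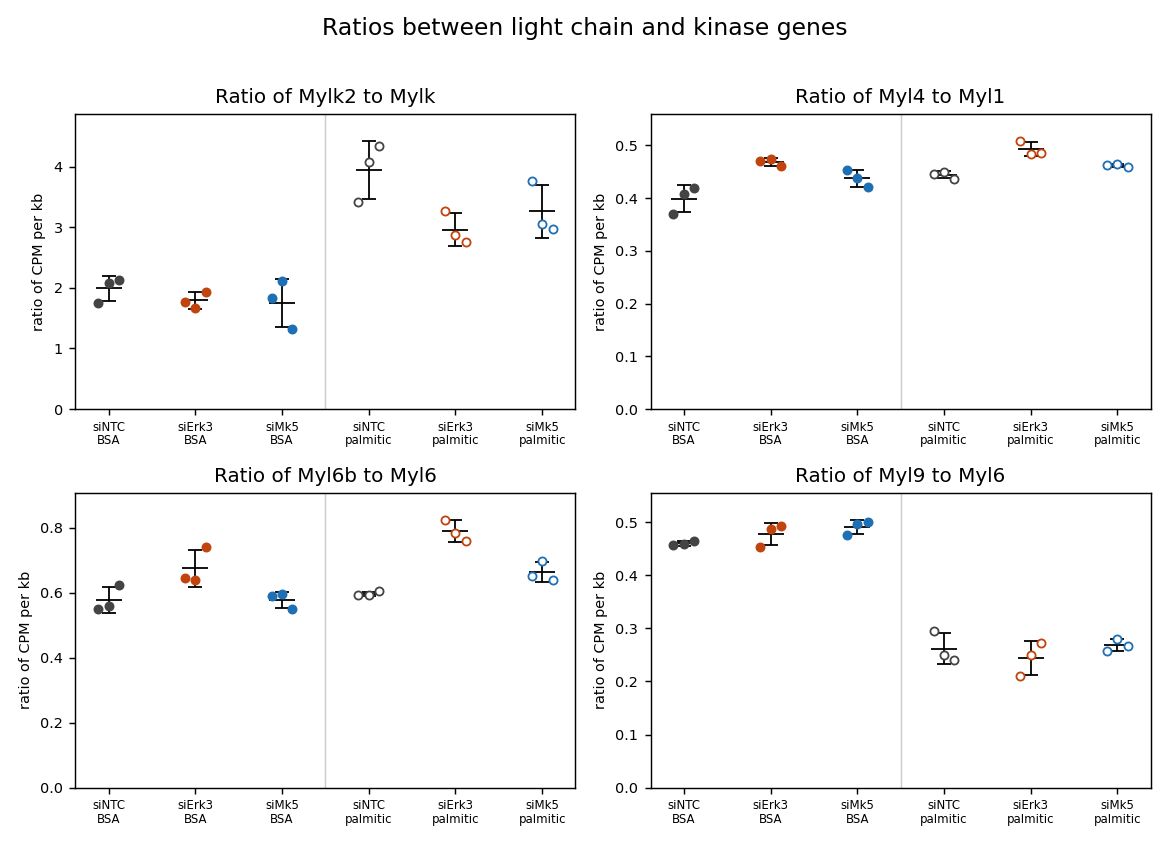
Ratio of 2 genes in CPM per kb (y axis, linear from 0) in each library by group (x axis), where points are libraries (filled in BSA, open in palmitic acid), long bars the mean and error bars the SD. Mylk2 to Mylk is above 2.7 in every palmitic acid library and below 2.2 in every BSA library, and Myl4 to Myl1 is higher in siErk3 than in siNTC in both media.

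Other genes of the pathway were taken from fixed lists. Of 6 relatives of the members, 5 could be tested, since Myl7 had 1 count in all. The muscle kinase Mylk4 rose with siErk3 in palmitic acid (0.55 on the log2 scale, edgeR FDR = 1.77e-05), the opposite direction to Mylk2 in that comparison. Mylk4 was the only relative called there, beside 0.556% of all genes. With palmitic acid, Mylk3, a kinase of cardiac muscle, fell by 1.00, 1.27 and 1.06 on the log2 scale in siNTC, siErk3 and siMk5, and Myl12b, a non-muscle regulatory chain, by 0.47, 0.46 and 0.67. With palmitic acid against BSA, 3, 2 and 3 of the 5 fell in siNTC, siErk3 and siMk5. Of all genes, 15.1%, 16.3% and 14.6% were called lower in these comparisons. Without siErk3 palmitic acid replicate 2, the count for palmitic acid against BSA in siErk3 was 1 in place of 2. Mylk4 fell in siNTC (-0.56) and siMk5 (-0.50), while Myl12a and Myl10 passed in none of the comparisons. Myl12a, also a non-muscle regulatory chain, had a mean of 250.6 CPM in siNTC BSA and 238.2 CPM in siNTC palmitic acid. Myl12a and Myl12b share 13.8% and 26.7% of their exonic bases with a gene on the same strand.

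Of 17 genes that act on light chain phosphorylation (myosin phosphatase subunits and inhibitors, calmodulins and kinases of the ROCK and MRCK families), none was called with either silencing in either medium by edgeR or by DESeq2. At an unadjusted edgeR p below 0.05 there were 4 with siErk3 and 1 with siMk5 in BSA, and 0 and 0 in palmitic acid. With palmitic acid, 3 of the 17 passed with each siRNA, beside 30.6%, 32.1% and 29.7% of all genes called in siNTC, siErk3 and siMk5. Rock2, a kinase that acts on myosin phosphatase, rose (0.50, 0.42 and 0.50 on the log2 scale in siNTC, siErk3 and siMk5), and the calmodulin gene Calm3 (-0.42, -0.50 and -0.54) and the citron kinase Cit (-1.10 to -0.93) fell. The median of the list lay at 0.04, 0.03 and 0.10.

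Of the 9 sarcomeric heavy chains, 4 rose with siErk3 in BSA (Myh3, Myh6, Myh7 and Myh8), beside 0.785% of all genes called, and 2 rose with siMk5 in BSA (Myh6 and Myh7), beside 0.0643%. In palmitic acid Myh7 and Myh8 rose with siErk3, beside 0.556% of all genes called, and Myh4 fell with siMk5, beside 0.547%. With 1 library left out these counts moved. For siMk5 in BSA the count was 0 without siNTC BSA replicate 2 and 1 without siMk5 BSA replicate 1. For siErk3 in palmitic acid it was 1 without siNTC palmitic acid replicate 1 or siErk3 palmitic acid replicate 1. For siMk5 in palmitic acid it was 0 without siNTC palmitic acid replicate 3 or siMk5 palmitic acid replicate 2, and 2 without siNTC palmitic acid replicate 2 or siMk5 palmitic acid replicate 3. The slow heavy chain Myh7 rose by 0.38 on the log2 scale with siErk3 in palmitic acid, in the libraries where the slow regulatory chain Myl2 fell. No smooth muscle type contractile gene and no gene of the 4 marker lists was called with either silencing by edgeR or by DESeq2. At an unadjusted edgeR p below 0.05 there were 7 of the 12 smooth muscle type genes with siErk3 in BSA, and 0 or 1 in the other silencing comparisons. No share of all genes at this threshold stands beside them. In palmitic acid, 1 or 2 of the 6 fibroblast markers were called once siNTC replicate 3, or siErk3 replicate 3 for siErk3, was left out.

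Across the 18 libraries, the genes most like Myl9 were Birc5, Cnn2 and Ckap2l (Pearson r of log2 CPM 0.997 each, among 12734 genes with a mean of at least 1 CPM). For Myl6 they were Nuak1, Tbx18 and Actg2 (r = 0.990 to 0.989), and for Mylk they were Serinc5, Fst and Pias1 (r = 0.992 to 0.989). Among themselves, Myl9, Myl6 and Mylk correlated at 0.969 to 0.987. The 18 points fall into 6 groups, and the step between the media enters each of these correlations.

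The fast chains Myl1 and Mylpf were most like each other among the members (r = 0.924), Myl1 was also close to Mss51 (0.936) and to its pseudogene Mylf-ps (0.935), and Mylpf to Mylf-ps (0.914) and to Mb (0.872). Mylk2 was most like Mustn1, Klhl41 and Csrp3 (0.882 to 0.825), and its correlation with Mylk was -0.09. Myl6b was like Frem2 and Tead2 (0.961 and 0.952), those most like Myl4 were Pacsin1, Smpx and Ctxn3 (0.836 to 0.828), and those most like Myl2 were Aldh3b3, Aldh3b1 and Pink1 (0.904 to 0.838). Myl3, with few counts, reached at most 0.752, with Vdac3-ps1, ahead of Cab39l (0.740) and Paics (0.726).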

How the data were processed

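Poly(A)-selected, strand-specific RNA-seq libraries of C2C12 myotubes were analysed. The authors trimmed the reads with Trim Galore, aligned them to GRCm39 with STAR, and counted read pairs per gene with featureCounts 2.0.0 (strand setting 2, minimum mapping quality 3) against Ensembl 105. The labels name mm10, while the header of the deposited count table names GRCm39, the build of all coordinates given. The values used are the deposited raw counts per gene, with symbols from a GENCODE annotation for 54749 of 55414 gene IDs. A second deposited table of log2 values was not used. Depth was 13041979 to 28496727 counts per library, and all statements on counts cover these libraries.

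Genes with at least 10 counts in total (21772 of 55414) were kept, as in the study. All 18 libraries entered 1 edgeR 4.0.16 quasi-likelihood fit (R 4.3.3, limma 3.58.1) with TMM normalization and a coefficient per group. p-values were adjusted over all tested genes by Benjamini-Hochberg (FDR), and a call needed FDR below 0.05 and a change of over 1.3-fold, up or down. Intervals are 95% confidence intervals of the fit. The study used DESeq2, which was run as an alternative (DESeq2 1.42.0). Other alternatives were DESeq2 size factors, other count filters, only the groups compared, the replicate number as a block, FDR alone and each library left out. Replicate numbers are shared by the groups but are not stated to mark a batch. Counts were simulated with 200 genes, each at a mean of at least 1 CPM, shifted by 1 on the log2 scale in siErk3 BSA alone. For siErk3 against siNTC in BSA, the fit recovered 192 of these (96%) with 8 false calls among 21356 genes. Smaller shifts, such as those near 1.3-fold, were not simulated. CPM per kb divides TMM CPM by the exonic bases of a gene.

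The genes described are the 10 members, the listed relatives, pathway genes and markers, the 3 genes most correlated with each member (1 of those for Myl6b is not reported here), and the silenced genes. The members and lists were chosen with earlier results of these data known. Promoters were read from a RefSeq table and placed by exact match, and figures were drawn with matplotlib 3.10.9.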

Additional observations from a re-analysis of the deposited data

How the results depend on the processing

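Over 1660 values of the 10 genes under the alternatives, 1637 stayed called or stayed uncalled, and most of these were uncalled throughout. Another 4 lost a call, 19 gained one and 0 called values changed sign. The 4 losses were of Mylk2 with siErk3 and Myl3 with siMk5, both against siNTC in palmitic acid. With DESeq2 in place of edgeR, all 110 values stayed called or uncalled as before. For siErk3 against siMk5 in BSA, 0 genes were called, against 1 with DESeq2 size factors, 1 with filterByExpr, 2 with no count filter and 2 with FDR alone. With FDR alone, 1 of the 10 passed for siErk3 and 1 for siMk5 against siNTC in BSA, beside 263 and 18 of all 21772 genes. For palmitic acid, 7, 6 and 4 passed in siNTC, siErk3 and siMk5 (4, 4 and 3 with the fold criterion). At FDR alone, 9809, 10265 and 9653 of all genes passed in these comparisons. For siErk3 against siMk5 in palmitic acid 2 passed, beside 336 of all genes. The higher counts follow from dropping the fold criterion. With only the groups compared in the fit, 1 gene was called for siErk3 in BSA (Myl2, -0.42, edgeR FDR = 0.0458). Leaving out 1 library at a time gave 0 to 1 genes for siErk3 against siMk5 in BSA and 0 to 1 for siMk5 in palmitic acid. A fit without the 18S gene, chosen after seeing the data, left all 110 values called or uncalled as they were.

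With the replicate number as a block, 1 gene was called for siErk3 against siMk5 in BSA (Myl3, edgeR FDR = 0.0392), and no other call of the 10 genes changed. No pairing by number was seen across the comparisons. Deviations of same-numbered libraries correlated at -0.67 to 0.58 over 27 pairs and 9332 genes, and in 0 comparisons were all pairs over 0.1. With 3 libraries per group, this check cannot exclude a shared batch. Depth limits Myl3 (20 to 60 counts per library) and Myl2 (62 to 188), whose calls rest on few counts. The causes of these changes were not tested where none is given.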
